A study of Mus musculus with 16 samples.

Results

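The 10 genes described here carry iron through a cell: Tfrc, Trf and Slc11a2 serve uptake, Fth1 and Ftl1 storage, Hmox1 release of iron from haem, Slc40a1 and Cp export, and Aco1 and Ireb2 sensing. They were chosen by symbol as a list of iron metabolism genes, of which some are known targets of the hypoxia-inducible factors (HIF), and all 10 were found among the 25719 genes counted. All 10 passed the filter on low counts, as did 14803 genes in all. RNA was sequenced from tail tendon fascicles, the collagen strands of the mouse tail, in 8 wild type libraries and 8 libraries labelled KO, which came from ScxCre;Vhlf/f mice. In those mice Cre is driven by Scx, a tendon lineage gene, so Vhl is deleted in Scx-expressing cells and their descendants and not in every cell of the strand. Whether the wild type mice carried the floxed allele or Cre, and the age and sex of the mice, are not given in the sources used here. Nothing in the labels says that each library came from a separate animal, so p-values measure the spread between libraries.

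Vertebrate cells take up iron bound to transferrin (Trf) through the transferrin receptor (Tfrc), pass it out of the endosome with the divalent metal transporter DMT1 (Slc11a2), store the excess in ferritin shells of heavy (Fth1) and light (Ftl1) chains, and export it through ferroportin (Slc40a1) with the help of ferroxidases such as ceruloplasmin (Cp). The iron regulatory proteins encoded by Aco1 and Ireb2 bind hairpins in mRNA when iron is low. Bound in a 5′ untranslated region they block translation, and bound in the 3′ untranslated region of Tfrc they protect the mRNA from decay. VHL marks HIF subunits for degradation, and several of the 10 members, among them Tfrc, Trf, Hmox1, Cp, Slc11a2 and Slc40a1, are known as HIF target genes.

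These hairpins, the iron-responsive elements, are shown because control through decay can be seen in RNA levels and control through translation cannot. They were searched for in GENCODE M21 transcripts (build GRCm38) as a C, 5 bases, the loop letters CAGTGN and 5 bases that pair with the first 5, G-T pairs allowed. A match was found in the 5′ untranslated region of 3 of the 10 members, against 31 of 20899 genes (0.148%), and in the 3′ untranslated region of 1 member, Tfrc, against 129 of 21682 genes (0.595%). The pattern is strict, so a member with no match, such as Slc11a2, whose known 3′ element it does not find, cannot be taken to lack an element. The matches are given 5′ to 3′ on the mRNA strand, with the bulged C and the 6 loop bases in capitals. They lie in the 5′ untranslated regions of Fth1 (chr19:9982732-9982760, plus strand), Ftl1 (chr7:45459779-45459807, minus strand) and Slc40a1 (chr1:45925465-45925493, minus strand), and at 4 places in the 3′ untranslated region of Tfrc on the plus strand (chr16:32631219-32631247, chr16:32631598-32631626, chr16:32631663-32631691 and chr16:32631710-32631738).
Fth1: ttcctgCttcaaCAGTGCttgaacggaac
Ftl1: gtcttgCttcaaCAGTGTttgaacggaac
Slc40a1: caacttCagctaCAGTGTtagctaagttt
Tfrc, site A: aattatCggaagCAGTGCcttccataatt
Tfrc, site B: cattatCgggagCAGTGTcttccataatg
Tfrc, site C: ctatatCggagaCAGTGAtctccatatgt
Tfrc, site D: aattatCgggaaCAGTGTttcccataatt

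The comparison of genotypes asks which of these transcripts differ when Vhl is deleted in the tendon lineage. Tfrc, Hmox1, Cp and Ftl1 rose in the knockout, Aco1 fell (though not with library sizes taken as total counts), and Trf, Slc11a2, Fth1, Slc40a1 and Ireb2 did not pass the test. That made 5 of 10 members past the threshold, an adjusted p under 0.05 in edgeR's quasi-likelihood test, where 48.3% of all tested genes passed. Of the members 4 were higher, with 25.6% of tested genes called higher, and 1 was lower, with 22.7% called lower. The share of members called was therefore near that of all genes. No knockout value fell inside the wild type range, or the reverse, in 4 of the 10 members (Tfrc, Hmox1, Cp and Aco1), against 19.4% of tested genes. That difference in share was not tested. The median log2 fold change was 0.06 over the members and 0.02 over all tested genes. In bulk tissue fewer cells of a type and less RNA per cell cannot be told apart.

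**Figure D1:**
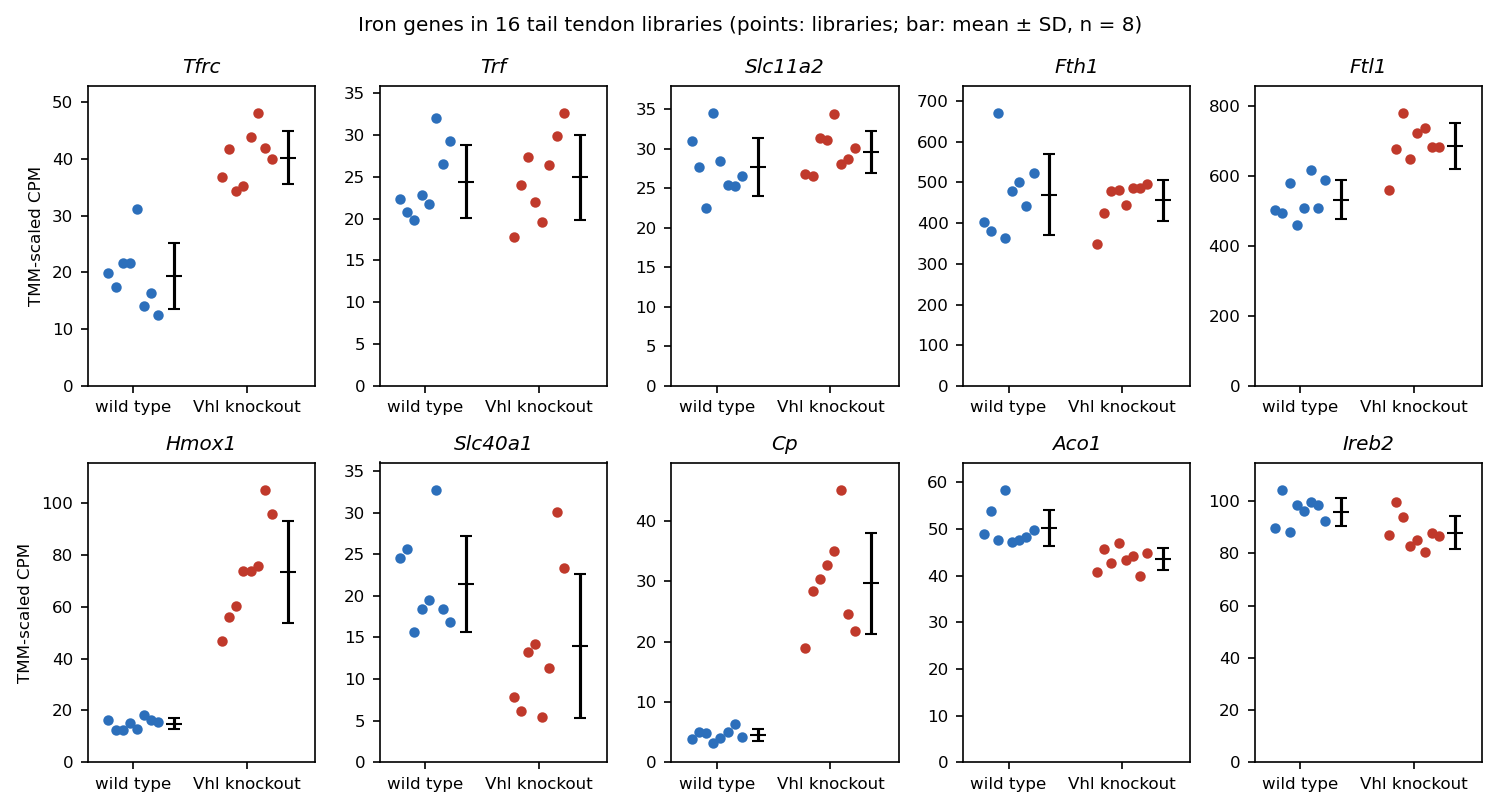
CPM (counts scaled to a common library size, with TMM factors) of the 10 iron genes in each of 8 wild type and 8 Vhl knockout libraries, 1 point per library, with the mean and SD of each genotype. The genotypes do not overlap in Tfrc, Hmox1, Cp and Aco1, and knockout libraries 7 and 8 stand above the other 6 in Slc40a1.

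Libraries held between 10488355 and 18753254 counts, and 3 counts, the floor used for detection, corresponded to between 0.145 and 0.336 CPM. Vhl itself, the check of the labels, stood at 9.35 ± 1.25 CPM in knockout libraries and 20.5 ± 3.69 in wild type ones (SD, n = 8 each; log2 fold change -1.13, SE 0.113; edgeR, Benjamini-Hochberg adjusted p = 9.64e-08). Of 9 tenocyte markers 6 fell and 1 rose, and their summed level ran from 77587 to 181187 CPM in knockout libraries and from 130878 to 380895 in wild type ones, so the labelled tissue was present in every library. Skeletal muscle markers varied within both genotypes: the sum of the 12 ran from 126 to 6578 CPM in knockout libraries and from 23.1 to 4116 in wild type ones, and were highest in knockout libraries 6, 7 and 8 and wild type library 5. Haemoglobin and other erythroid markers were higher in every knockout library (77.8 to 563 CPM in sum) than in any wild type library (15.1 to 50.8).

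Among the uptake genes only Tfrc passed the test. Tfrc (ENSMUSG00000022797, chromosome 16), the receptor that carries transferrin-bound iron into the cell, ran from 34.3 to 48.0 CPM in the knockout with a median of 40.8. In the wild type it ran from 12.5 to 31.1 with a median of 18.7. Every knockout library stood above every wild type library, and the highest wild type value belonged to library 5, the one rich in muscle markers. The means were 40.2 ± 4.65 and 19.3 ± 5.82 CPM (SD, n = 8 each), a 2.08-fold difference (log2 fold change 1.06, SE 0.144; edgeR, Benjamini-Hochberg adjusted p = 6.04e-06). Developing red cells are rich in this receptor. All 5 tested erythroid markers rose, Hbb-bs from 13.0 to 161 CPM. The red cell membrane gene Slc4a1 (1.87 CPM in the knockout, 0.0645 in the wild type) was too low to be tested, and the part of erythroid cells in the Tfrc difference was not tested.

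The other uptake members did not pass the test. Trf (ENSMUSG00000032554, chromosome 9), the iron carrier of plasma, which is also made outside the liver, ran from 17.8 to 32.6 CPM in knockout libraries (median 25.2) and from 19.8 to 32.1 in wild type ones (median 22.6). The ranges lie almost on top of each other, and the log2 fold change was 0.03 (SE 0.126; edgeR, Benjamini-Hochberg adjusted p = 0.855). Of 5 hepatocyte markers, Apoa1, Ttr, Fgb and Ahsg had at most 3 counts in every library, and Alb, too low to be tested, averaged 0.211 CPM in knockout libraries and 0.628 in wild type ones. Slc11a2 (ENSMUSG00000023030, chromosome 15), which moves iron across the endosomal membrane, ran from 26.5 to 34.4 CPM in knockout libraries (median 29.4) and from 22.5 to 34.5 in wild type ones (median 27.2). These ranges overlapped as well (log2 fold change 0.10, SE 0.0815; edgeR, Benjamini-Hochberg adjusted p = 0.338). Exons of Trf overlap those of the predicted gene Gm20425, and exons of Slc11a2 overlap those of Gm5475, so some of their reads are uncertain.

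The ferritin chains did not move alike. Ftl1 (ENSMUSG00000050708, chromosome 7), the light chain that helps form the mineral core, ran from 561 to 779 CPM in the knockout with a median of 683. Its wild type values ran from 459 to 618 with a median of 509. In 7 of 8 knockout libraries Ftl1 was above the highest wild type library, and knockout library 1 was the exception. The means were 686 ± 65.3 and 533 ± 55.7 CPM (SD, n = 8 each; log2 fold change 0.37, SE 0.0806; edgeR, Benjamini-Hochberg adjusted p = 8.80e-04). This count is uncertain, since Ftl1 has near-identical processed copies and its exons overlap those of Gm10252 on the other strand. Gm10252 was counted at 303 ± 39.4 CPM in knockout libraries and 238 ± 30.0 in wild type ones and moved alike (log2 fold change 0.35; edgeR, Benjamini-Hochberg adjusted p = 0.00401).

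Fth1 (ENSMUSG00000024661, chromosome 19), the heavy chain with the ferroxidase site, ran from 349 to 496 CPM in knockout libraries (median 481) and from 363 to 670 in wild type ones (median 460). The groups overlapped, with the highest value in wild type library 3 and the lowest in knockout library 1. The log2 fold change was -0.04 (SE 0.113; edgeR, Benjamini-Hochberg adjusted p = 0.779), and it was 0.01 without knockout library 1 and 0.04 without wild type library 3. The ratio of Fth1 to Ftl1 counts within a library was lower in every knockout library than in any wild type library. On the log2 scale it averaged -0.59 ± 0.116 in knockout libraries and -0.20 ± 0.190 in wild type ones, a difference of -0.39 (SD, n = 8 each; two-sided exact permutation test, p = 0.000155, the smallest the 16 libraries can give; adjusted over 4 ratios, p = 0.000207).

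Hmox1 (ENSMUSG00000005413, chromosome 8), haem oxygenase, which frees iron from haem, ran from 46.9 to 105 CPM in the knockout with a median of 73.7. In the wild type it ran from 12.4 to 18.2 with a median of 15.2. The lowest knockout library stood above the highest wild type library, and knockout libraries 7 and 8 were the highest. Means of 73.4 ± 19.6 and 14.9 ± 2.14 CPM gave a 4.92-fold difference (SD, n = 8 each; log2 fold change 2.30, SE 0.149; edgeR, Benjamini-Hochberg adjusted p = 3.55e-10). Macrophages that recycle red cells are rich in Hmox1. Of 11 macrophage markers 3 rose (Adgre1, Lyz2 and Ptprc) and 8 did not pass the test. The 27.3% that rose was near the 25.6% of all tested genes called higher. Summed levels of the markers overlapped (1378 to 2010 CPM in knockout, 1244 to 1804 in wild type libraries). Knockout libraries 7, 8 and 6, the highest in Hmox1 (105, 95.8 and 75.5 CPM), were also rich in muscle markers. Their tested endothelial markers were the highest too (mean log2 CPM 5.66, 5.26 and 5.07). Muscle-rich wild type library 5 held 13.0 CPM of Hmox1. With the mean log2 CPM of the muscle markers as a covariate, the log2 fold change was 2.21 (edgeR, Benjamini-Hochberg adjusted p = 3.66e-09). The part of macrophages or vessels in the Hmox1 difference was not tested.

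**Figure D2:**
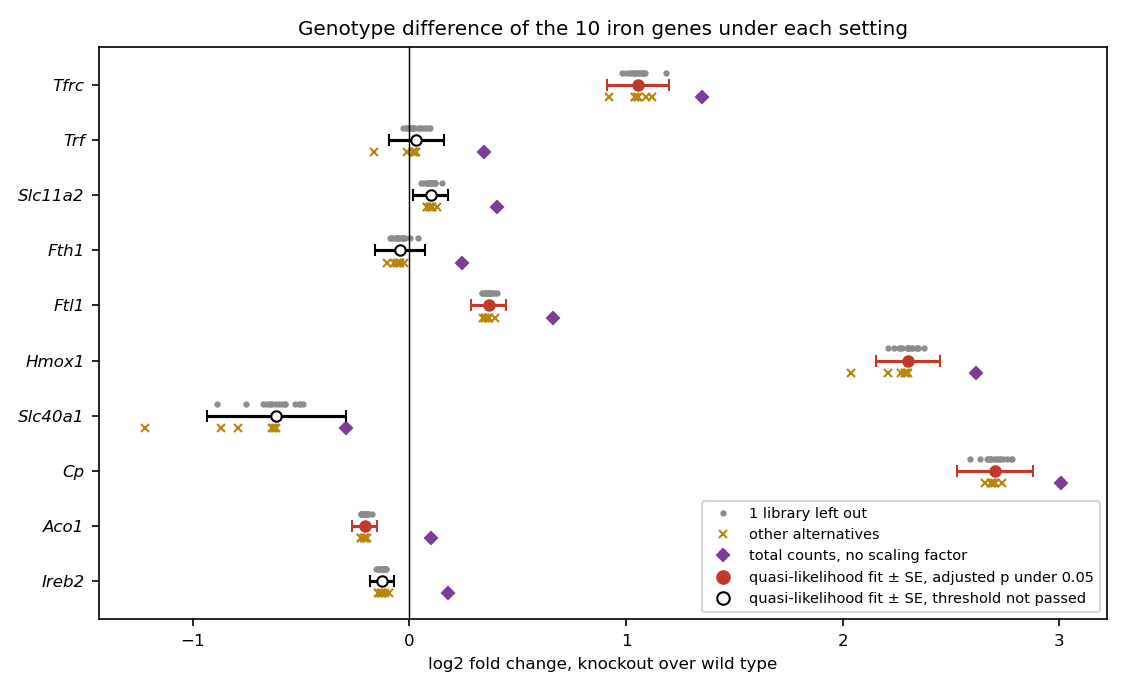
Log2 fold change (knockout over wild type) of the 10 iron genes from the quasi-likelihood fit, with bars of 1 SE, beside the values under the other settings tried. Cp, Hmox1, Tfrc, Ftl1 and Slc11a2 lie above 0 under each setting and Slc40a1 below 0, and Fth1, Trf, Aco1 and Ireb2 cross 0 under some.

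Of the export genes Cp rose and Slc40a1 did not pass the test. Cp (ENSMUSG00000003617, chromosome 3), the ferroxidase that loads exported iron onto transferrin, ran from 19.02 to 45.2 CPM in the knockout with a median of 29.4. In the wild type it ran from 3.14 to 6.37 with a median of 4.50. All 8 knockout libraries were above all 8 wild type libraries, with the highest value in knockout library 6. The means were 29.6 ± 8.31 and 4.56 ± 0.991 CPM, a 6.50-fold difference and the largest of the 10 members (SD, n = 8 each; log2 fold change 2.70, SE 0.174; edgeR, Benjamini-Hochberg adjusted p = 2.86e-10). Hepatocytes are the main source of plasma ceruloplasmin, and the hepatocyte markers summed to at most 0.436 CPM in any knockout library and 1.34 in any wild type library. Against the mean log2 CPM of the macrophage markers, Cp had Spearman's rho 0.90 in knockout libraries (exact permutation p = 0.00456, adjusted p = 0.274). Pearson's r was 0.74 there (exact permutation p = 0.0370, adjusted p = 0.340) and 0.35 in the wild type (exact permutation p = 0.396). The part of macrophages in the Cp difference was not tested. Cp shares exon bases with Hps3 on the other strand, and Hps3 stood at 33.2 CPM in knockout libraries and 32.1 in wild type ones (log2 fold change 0.05; edgeR, Benjamini-Hochberg adjusted p = 0.570). Heph, the membrane-bound relative of Cp and chosen after its values were seen, also rose without overlap, from 1.96 ± 0.513 to 7.57 ± 1.30 CPM (SD, n = 8 each; log2 fold change 1.94, SE 0.158; edgeR, Benjamini-Hochberg adjusted p = 4.88e-09).

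Slc40a1 (ENSMUSG00000025993, chromosome 1), ferroportin, the iron exporter of animal cells, ran from 5.49 to 30.1 CPM in the knockout with a median of 12.3. In the wild type it ran from 15.7 to 32.7 with a median of 18.95. In 6 of 8 knockout libraries it was below the lowest wild type library, and knockout libraries 7 (30.1 CPM) and 8 (23.3 CPM) were within the wild type range. The means were 14.0 ± 8.67 and 21.5 ± 5.75 CPM (SD, n = 8 each), and the difference did not pass the test (log2 fold change -0.61, SE 0.321; edgeR, Benjamini-Hochberg adjusted p = 0.128). Leaving out knockout library 7 brought it past the threshold, with a log2 fold change of -0.89 (edgeR, Benjamini-Hochberg adjusted p = 0.0161). So did leaving out the 4 libraries rich in muscle markers, an alternative chosen after seeing the data, with -1.22 (SE 0.262; edgeR, Benjamini-Hochberg adjusted p = 0.00168).

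The 3 knockout libraries rich in muscle markers held 11.4, 30.1 and 23.3 CPM of Slc40a1, and the other 5 between 5.49 and 14.2. Muscle-rich wild type library 5 held 19.5 CPM, near the wild type median. Endothelial markers were also uneven in the knockout, summing to between 35.6 and 449 CPM against 29.5 to 47.9 in the wild type, and 4 of the 6 tested rose. Adipocyte markers summed to between 0.765 and 65.0 CPM in the knockout and 0.290 and 2.30 in the wild type. Fabp4, the 1 of 6 that was tested, rose (log2 fold change 5.27; edgeR, Benjamini-Hochberg adjusted p = 8.12e-04) and alone reached 50.1 CPM. Its log2 CPM was highest in knockout libraries 7 (5.65), 6 (4.58) and 8 (4.55). The mean log2 CPM of the tested endothelial markers was highest there too (5.66, 5.07 and 5.26). Of the untested adipocyte markers, Adipoq, Plin1, Cidec and Cfd averaged higher in the knockout and Lep lower (0.0606 against 0.266 CPM). With the mean log2 CPM of the muscle markers as a covariate, the log2 fold change of Slc40a1 was -0.87 and did not pass (edgeR, Benjamini-Hochberg adjusted p = 0.0670). The muscle-rich knockout libraries were also highest in endothelial markers and Fabp4, so this fit cannot separate muscle from vessel or fat. The part of vessel or fat RNA in the Slc40a1 values was not tested. The log2 ratio of Slc40a1 to Cp counts separated the genotypes in all 16 libraries, at -1.27 ± 1.05 in knockout libraries and 2.21 ± 0.438 in wild type ones, a difference of -3.48 (SD, n = 8 each; two-sided exact permutation test, p = 0.000155; adjusted p = 0.000207). Cp alone already separated the genotypes, with a log2 fold change of 2.70, so this ratio does not show a change in Slc40a1.

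Of the iron sensors, Aco1 passed the test and Ireb2 did not, and both lay slightly below the median of all genes. Aco1 (ENSMUSG00000028405, chromosome 4), which encodes iron regulatory protein 1 and serves as cytosolic aconitase when it holds an iron-sulfur cluster, ran from 39.96 to 47.09 CPM in the knockout (median 43.8). In the wild type it ran from 47.15 to 58.4 (median 48.6). The groups did not overlap, by a margin far smaller than their spread. The means of 43.6 ± 2.41 and 50.2 ± 3.93 CPM differed by a log2 fold change of -0.21 (SD, n = 8 each; SE 0.0566; edgeR, Benjamini-Hochberg adjusted p = 0.00521). With library sizes taken as total counts the sign turned to 0.10 (edgeR, Benjamini-Hochberg adjusted p = 0.225), because that scaling moved the median of all genes up to 0.32. Relative to that median Aco1 was at -0.22 under both scalings.

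Ireb2 (ENSMUSG00000032293, chromosome 9), iron regulatory protein 2, which is degraded when iron is plentiful, ran from 80.5 to 99.7 CPM in knockout libraries (median 87.0) and from 88.3 to 104 in wild type ones (median 97.3). In 6 of 8 knockout libraries it was below the lowest wild type library. The log2 fold change of -0.13 (SE 0.0540) did not pass the test (edgeR, Benjamini-Hochberg adjusted p = 0.0622), and it lay at 0.18 with total counts and -0.14 relative to the median of all genes under that scaling. It passed when 1 of 3 libraries was left out: knockout library 2 (log2 fold change -0.15; edgeR, Benjamini-Hochberg adjusted p = 0.0207), wild type library 1 (-0.14, adjusted p = 0.0496) or wild type library 3 (-0.15, adjusted p = 0.0314). The log2 ratio of Aco1 to Ireb2 counts was -1.01 ± 0.130 in knockout libraries and -0.93 ± 0.103 in wild type ones, a difference of -0.08 that was within the spread (SD, n = 8 each; two-sided exact permutation test, p = 0.201; adjusted p = 0.201).

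Tfrc was also read against Fth1, 1 uptake gene against 1 storage gene. The log2 ratio of Tfrc to Fth1 counts averaged -3.50 ± 0.215 in knockout libraries and -4.63 ± 0.518 in wild type ones, a difference of 1.12 with no overlap (SD, n = 8 each; two-sided exact permutation test, p = 0.000155; adjusted p = 0.000207). Both counts come from the same library, so this difference does not depend on how library sizes were scaled. Tfrc alone already separated the genotypes and Fth1 did not pass the test, so the ratio does not show a change in Fth1.

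**Figure D3:**
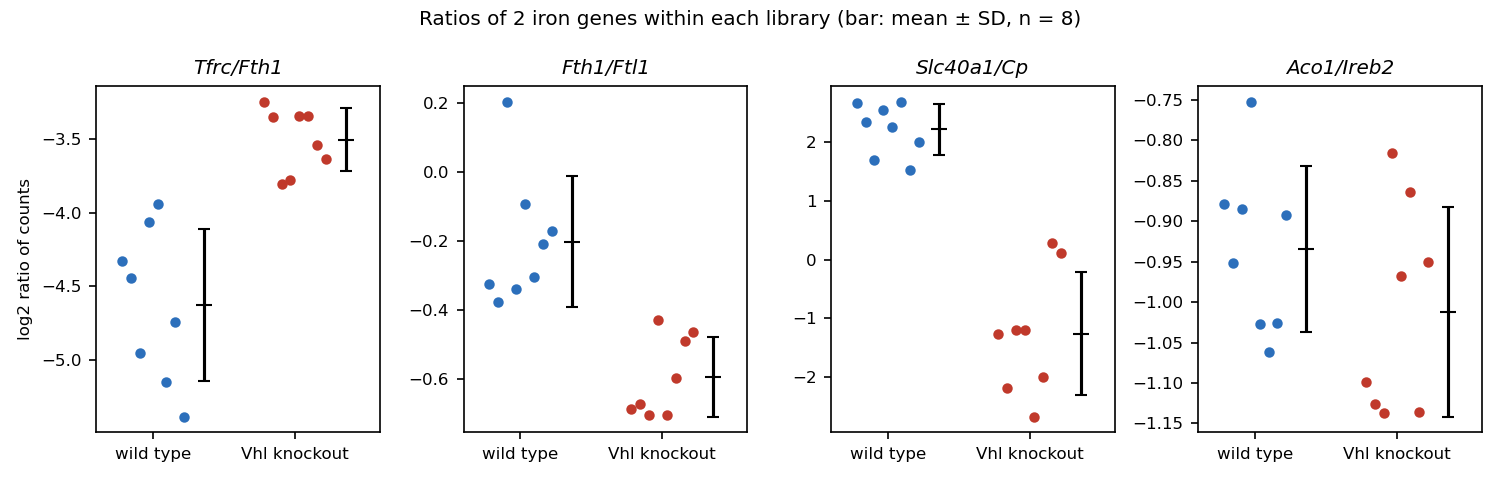
Log2 ratio of the counts of 2 iron genes within each of the 16 libraries, 1 point per library, for Tfrc to Fth1, Fth1 to Ftl1, Slc40a1 to Cp and Aco1 to Ireb2, with the mean and SD of each genotype. The genotypes separate in the first 3 ratios and overlap in the last.

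Per kilobase of exon the members spanned a wide range of levels in both genotypes. The length used was the union of all annotated exons, such as 1340 bases for Ftl1, 3469 for Fth1 and 9566 for Cp. It can be longer than the mRNA present, so the order below depends on the annotation. Before division Ftl1 and Fth1 averaged 686 and 456 CPM in the knockout, and 533 and 470 in the wild type. Ferritin light chain led with 512 ± 48.7 CPM per kilobase in knockout libraries and 398 ± 41.6 in wild type ones (SD, n = 8 each), and the heavy chain followed with 131 ± 14.3 and 135 ± 28.6. In the knockout Hmox1 came next at 41.9 ± 11.2, apart from the close group of Aco1 (9.69 ± 0.536) and Ireb2 (9.28 ± 0.651). Aco1 and Ireb2 differ by less than either SD. Trf (7.52 ± 1.53) and Tfrc (6.50 ± 0.751) came below them in the knockout, and differ by less than the SD of Trf but more than that of Tfrc. In the wild type Hmox1 stood at 8.51 ± 1.22, between the sensors (Aco1 11.2 ± 0.875, Ireb2 10.1 ± 0.574) and Trf (7.36 ± 1.32), and Tfrc was at 3.13 ± 0.941. Slc11a2 stood at 4.67 ± 0.416 and 4.36 ± 0.585 in knockout and wild type. By its mean Slc40a1 (1.55 ± 0.963) was the lowest member in the knockout, below Cp (3.10 ± 0.868), though in knockout libraries 7 and 8 the log2 ratio of Slc40a1 to Cp counts was above 0 (0.29 and 0.10). Cp (0.477 ± 0.104) was the lowest in the wild type, below Slc40a1 (2.39 ± 0.639).

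Across libraries of 1 genotype no pair of members varied together beyond what adjustment allowed. Of 90 correlations between members within a genotype, 4 in knockout libraries and 6 in wild type ones had an exact permutation p under 0.05, and 0 passed Benjamini-Hochberg adjustment. Fth1 and Ftl1, the chains of ferritin, had r = 0.80 in the wild type (exact permutation p = 0.0136, adjusted p = 0.305; Spearman's rho 0.90, p = 0.00456; r = 0.81 without the 2 libraries farthest from the median). In the knockout r was 0.74 (exact permutation p = 0.0584, adjusted p = 0.416; Spearman's rho 0.43, p = 0.299) and -0.25 without the 2 farthest libraries, so it rested on those. Of 60 correlations of a member with a marker score, the mean log2 CPM of tested muscle, erythroid or macrophage markers, 4 in knockout libraries and 3 in wild type ones had an exact permutation p under 0.05 and 0 passed adjustment. The largest r was that of Trf with the macrophage score in the wild type, 0.87 (exact permutation p = 0.00799, adjusted p = 0.340). It was 0.91 without the 2 libraries farthest from the median score, and 0.05 in the knockout (exact permutation p = 0.911). The muscle scores fell into separate groups of libraries, so no r with them is given.

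**Figure D4:**
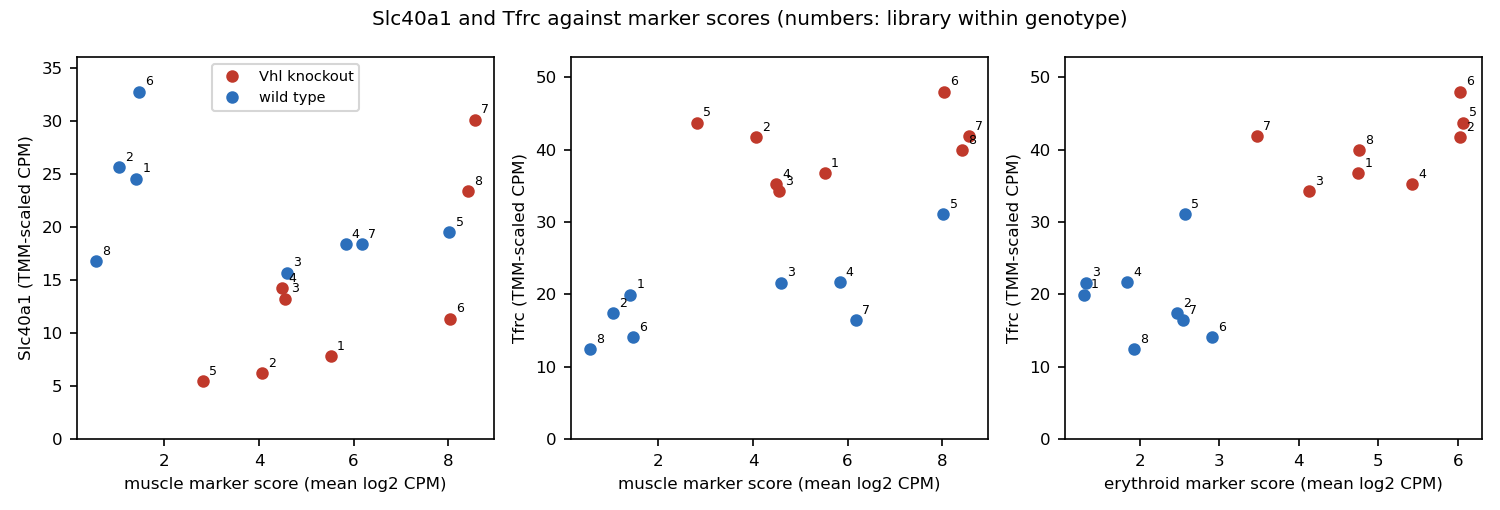
Slc40a1 and Tfrc levels (vertical axes, TMM-scaled CPM from 0) against the muscle or erythroid marker score (horizontal axes, mean log2 CPM), 1 numbered point per library, coloured by genotype. Of the 3 knockout libraries rich in muscle markers, 7 and 8 hold 30.1 and 23.3 CPM of Slc40a1 and 6 holds 11.4.

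HIF binds the letters ACGTG or GCGTG. These letters, on either strand, were searched for in the 250 bases before the starts that RefSeq gives on GRCm38.p6, where 6 of the 10 members have an entry. They occurred in 12679 of 32851 such windows (38.6%), so a match is common. Both Cp windows and those of Aco1 and Ireb2 held 0 matches, Ftl1 held 1, and Fth1 held 0 and 1 at its 2 starts. Tfrc held 2 and 3 at its 2 starts. A match is a description of letters and not a binding site. The 4 members with no entry were not compared. The window of the first Tfrc start, chosen with the result for Tfrc known, is shown as an example that lies wholly upstream of the starts given (chr16:32608646-32608895, plus strand, with the matches in capitals, CACGC being GCGTG on the other strand).
Tfrc window: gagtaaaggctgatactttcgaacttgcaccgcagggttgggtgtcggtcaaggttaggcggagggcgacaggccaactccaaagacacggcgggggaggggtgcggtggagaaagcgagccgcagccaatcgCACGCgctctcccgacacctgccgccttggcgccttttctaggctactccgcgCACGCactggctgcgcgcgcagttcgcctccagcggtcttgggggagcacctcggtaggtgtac

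The wider iron and haem pathway was read from 77 further genes, of which 70 were tested. Of these 18 rose, 18 fell and 34 did not pass, so 51.4% were called where 48.3% of all genes were. The groups did not overlap in 13 of the 70, as in 19.4% of all tested genes. The median log2 fold change was 0.01. Changes in both directions thus stood beside those of the 10 members, at about the rate of any tested gene. The counts per list below stand beside 25.6% of all tested genes called higher and 22.7% called lower. The lists are small, and no difference of a list from these shares was tested.

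Among 10 tested genes of other uptake routes 2 rose and 3 fell. Tfr2, a receptor relative that senses iron-loaded transferrin and is known from liver and erythroid cells, ran from 0 to 1.01 CPM in the wild type and from 12.9 to 17.2 in the knockout. Its means of 0.514 ± 0.309 and 15.0 ± 1.50 CPM gave a log2 fold change of 4.82 (SD, n = 8 each; SE 0.246; edgeR, Benjamini-Hochberg adjusted p = 6.28e-12). It rose in libraries whose erythroid markers were higher too, and the part of erythroid cells in it was not tested. Steap2, a ferrireductase, fell from 103 ± 7.30 to 54.6 ± 7.53 CPM (SD, n = 8 each; log2 fold change -0.91; edgeR, Benjamini-Hochberg adjusted p = 6.92e-09).

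Among 10 tested regulators 3 rose and 3 fell, so 60.0% were called against 48.3% of all tested genes. Bmp2, a ligand of the pathway that raises hepcidin in liver, fell from 31.7 ± 3.46 to 9.97 ± 1.69 CPM (SD, n = 8 each; log2 fold change -1.67; edgeR, Benjamini-Hochberg adjusted p = 7.41e-11). Neo1, neogenin, a partner of hemojuvelin, fell from 185 ± 26.8 to 96.9 ± 12.7 (log2 fold change -0.93; edgeR, Benjamini-Hochberg adjusted p = 1.20e-07). Erfe, erythroferrone, known as a hormone of erythroblasts, rose from 3.24 ± 0.590 to 7.05 ± 1.14 (log2 fold change 1.12; edgeR, Benjamini-Hochberg adjusted p = 8.27e-07), and its exons overlap those of Ilkap. These genes also act outside iron handling, Bmp2 in skeletal tissue and Neo1 in cell guidance.

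Of 6 tested genes of storage and export besides the members, 3 rose and 1 fell (66.7% called), with Heph among those that rose. Of 11 enzymes and transporters of haem synthesis 2 rose, 1 fell and 8 did not pass, so 27.3% were called against 48.3% of all tested genes, a difference that was not tested. Cpox, coproporphyrinogen oxidase, rose from 12.3 ± 1.91 to 20.1 ± 2.58 CPM (log2 fold change 0.71; edgeR, Benjamini-Hochberg adjusted p = 7.74e-06). Fech, which inserts iron into the ring, fell from 87.2 ± 3.61 to 70.2 ± 5.78 (log2 fold change -0.31; edgeR, Benjamini-Hochberg adjusted p = 9.07e-05), and was at -0.33 relative to the median of all genes under total counts, where its own value was -0.0060. Among 9 tested genes of haem uptake and breakdown besides Hmox1, 1 rose and 5 fell. That made 66.7% called against 48.3% of all tested genes, a difference that was not tested either. Among the 5 was Slc46a1 (9.80 ± 1.84 to 4.96 ± 0.772 CPM, log2 fold change -0.99, edgeR, Benjamini-Hochberg adjusted p = 3.37e-06). Its place in this list does not show that haem is its main cargo. Slc48a1 was another of them (124 ± 16.5 to 87.8 ± 6.56 CPM, log2 fold change -0.50, edgeR, Benjamini-Hochberg adjusted p = 2.17e-05).

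Of 24 genes of mitochondrial iron and iron-sulfur assembly 7 rose, 5 fell and 12 did not pass. Iscu, the scaffold on which clusters are built, fell from 37.6 ± 3.72 to 22.6 ± 3.14 CPM (SD, n = 8 each; log2 fold change -0.73; edgeR, Benjamini-Hochberg adjusted p = 7.63e-07). Hspa9, the mitochondrial chaperone that helps pass clusters on, rose from 118 ± 7.81 to 181 ± 20.8 (log2 fold change 0.62; edgeR, Benjamini-Hochberg adjusted p = 5.72e-07). Neither HIF alpha subunit examined passed: Epas1, the HIF2α subunit, had a log2 fold change of -0.17 (edgeR, Benjamini-Hochberg adjusted p = 0.494), and Hif1a had 0.11 (adjusted p = 0.219). Epas1 was uneven in the knockout, from 37.0 to 128 CPM (SD 30.0) against 71.8 to 95.3 (SD 7.21) in the wild type. Of 8 knockout libraries 5 lay below the lowest wild type library and 2 above the highest.

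**Figure D5:**
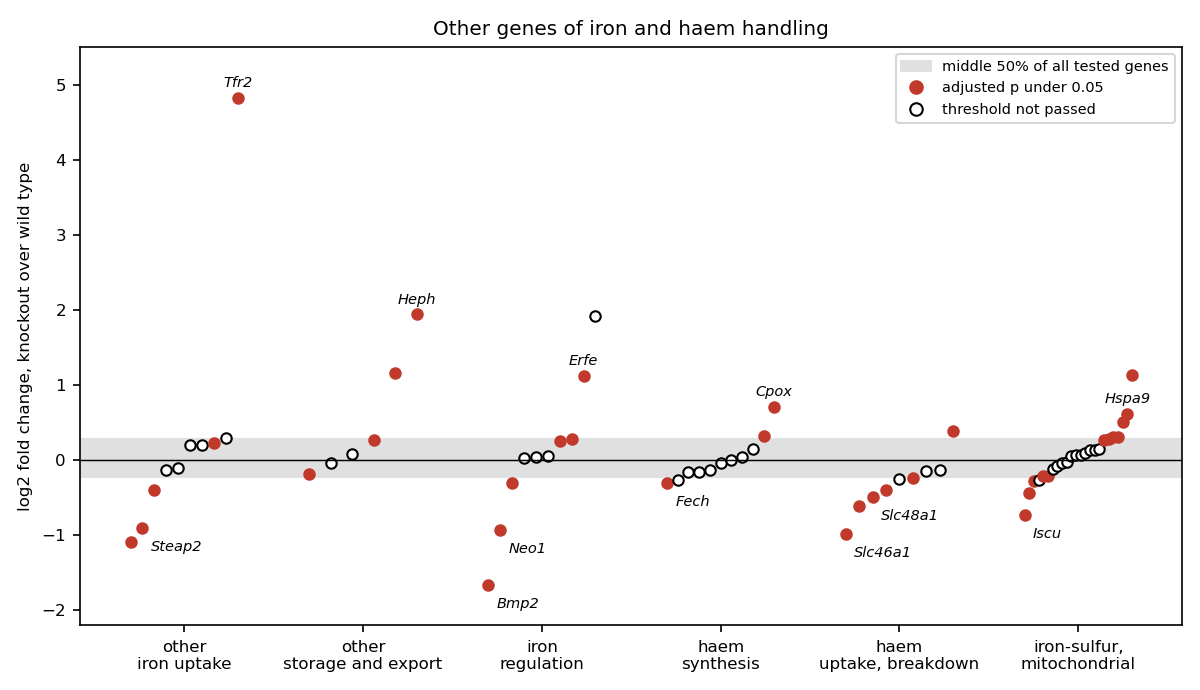
Log2 fold change (knockout over wild type) of 70 further iron and haem genes in 6 groups, 1 point per gene, filled where the adjusted p was under 0.05. The grey band holds the middle 50% of all tested genes, and Tfr2 at 4.82 and Bmp2 at -1.67 are the ends of the range.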

How the data were processed

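The authors deposited 1 table of whole-number counts per gene for each of 16 libraries. The submitters' processing notes name kallisto, featureCounts and GRCm39, without role or version, and the annotation and the use of strand in counting are not given in the sources used here. Genotypes came from the sample titles. The 10 members, the wider lists and the tests were chosen with earlier results of these data known. Of 25719 identifiers, 25614 were matched to a symbol and 105 were not, and 10916 genes were not tested. Exons, lengths and untranslated regions came from GENCODE M21 (GRCm38).

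Counts were fitted with the quasi-likelihood test of edgeR 4.0.16 (R 4.3.3, limma 3.58.1) with robust dispersions, TMM scaling, filterByExpr and genotype as the only term, two-sided, with Benjamini-Hochberg adjustment over 14803 genes and a threshold of 0.05. Levels are CPM on TMM-scaled library sizes, and log2 CPM used a prior count of 2. Ratios within a library used counts plus 0.5 and exact permutation over all 12870 groupings, and correlations used all 40320 orders of 8 libraries. Named genes of the wider lists passed the test, did not overlap and averaged at least 5 CPM, up to 4 per list. Values of some listed genes are not reported here. No pair of libraries was a repeat (lowest chi-square per degree of freedom 6.58). On simulated counts the fit recovered 46 of 67 genes changed 1.5-fold, 67 of 67 at 2-fold and 65 of 65 at 4-fold, and 15 of 193 calls were false. The simulation changed few genes, up and down, with the same dispersion for every gene. In the data 48.3% of genes were called and some libraries were rich in other tissue, so these rates cannot be carried over to the data. Alternatives were DESeq2 size factors, total counts, TMM without the 20 most abundant genes, no filter, the DESeq2 1.42.0 Wald test, the replicate number as a block, the muscle score as a covariate, each library left out, and, added after seeing the data, the 4 libraries with a muscle score above 8 left out. Depth-based floors cover counting error only.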

Additional observations from a re-analysis of the deposited data

Results flagged for a closer look

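In 52 checks of a gene within a genotype, 3 libraries stood apart by Dixon's criterion, which chance gives in about 1 in 20 groups, or 2.6 of 52. Fth1 in knockout library 1 had a log2 CPM of 8.45 with the next library at 8.73, and without that library the log2 fold change of Fth1 was 0.01. Tfr2 in wild type library 5 had a log2 CPM of -2.73, which stands for 0 counts, with the next library at -1.11. Heph in knockout library 3 had a log2 CPM of 2.28 with the next library at 2.87, still above every wild type library.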

How the results depend on the processing

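Called genes numbered 7151 in all, 5 among the 10 members and 36 among the 70 wider genes, and each count stayed within 1.5 times that value under the alternatives run. Over all genes it lay between 6551 and 9685, at 6101 without the 4 libraries rich in muscle markers and between 6790 and 7151 with 1 library left out. The members called numbered 5 to 7, and the wider genes 28 to 44. With total counts 85.4% of calls were higher, against 53.0% with TMM, and the median of all genes lay at 0.32. That scaling turned Fth1 to 0.24, Aco1 to 0.10 and Ireb2 to 0.18, and brought Trf (0.34), Slc11a2 (0.41) and Ireb2 past the threshold. Trf turned to -0.012 with the muscle covariate and -0.16 without the 4 libraries. With 1 library left out it ran from -0.031 to 0.097, turning to -0.0098 without knockout library 7, -0.031 without 8, -0.00077 without wild type library 2 and -0.013 without 3. Fth1 ran from -0.091 to 0.041 in this way, turning to 0.0053 without knockout library 1 and 0.041 without wild type library 3. Ireb2 passed with DESeq2 size factors (adjusted p = 0.0409) and the DESeq2 Wald test (adjusted p = 0.0231), and Slc40a1 missed with the muscle covariate (-0.87, edgeR adjusted p = 0.0670). With the replicate number as a block 7010 genes and 5 members were called and the replicate block changed no member's call. The numbers do not pair the libraries, since same-numbered correlations ran from -0.397 to 0.394 and 1 of 8 was the best match.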

Other observations

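Some iron genes of the wider lists were too low to be tested. Hamp, which encodes hepcidin, the hormone that removes ferroportin from the membrane, had at most 2 counts in any library. Ftmt, mitochondrial ferritin, had 0 counts in all 16, which allows up to between 0.145 and 0.336 CPM depending on the library. Hp, haptoglobin, which captures free haemoglobin, averaged 1.77 ± 1.21 CPM in knockout libraries and 0.311 ± 0.255 in wild type ones, and Lcn2, lipocalin 2, averaged 1.02 ± 0.339 and 0.606 ± 0.239 (SD, n = 8 each). Cd163, the macrophage receptor for haptoglobin-bound haemoglobin, rose from 72.1 ± 14.4 to 94.0 ± 25.4 CPM (SD, n = 8 each; log2 fold change 0.38; edgeR, Benjamini-Hochberg adjusted p = 0.0457). Hjv, hemojuvelin, a gene known from liver and skeletal muscle, averaged 13.1 ± 14.1 CPM in knockout libraries and 3.52 ± 5.90 in wild type ones and did not pass the test (edgeR, Benjamini-Hochberg adjusted p = 0.134).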
